A study of Mus musculus with 4 samples.

Results

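Normal colon of mice with a floxed Dmt1 genotype was set against normal colon of Dmt1 wild-type mice, gene by gene, on 2 of the 4 Affymetrix whole-transcript arrays of the series. The wild-type array carried RNA of genotype CDX2; Dmt1+/+/ApcF/+ and the other array RNA of genotype CDX2; Dmt1F/F/ApcF/+, called F/F here. All animals were C57BL/6 mice aged 3 months, and both groups carried the ApcF/+ allele and the CDX2 element. The letter F conventionally denotes a loxP-flanked (floxed) allele, and CDX2 before a genotype usually names a Cre recombinase driven by the promoter of that gene, active in the epithelium of the distal gut, although the labels do not spell this out. The other 2 arrays held tumours of the same genotypes and serve below as a separate pair. The design text gives 7 wild-type and 4 F/F animals, and the sources used here do not say whether an array carried RNA of 1 animal or of a pool. There was no replicate of either genotype, so each value below is the difference of 2 log2 signals, F/F minus wild-type, with no error and no test. Genes were those with a probe set that names exactly 1 gene, the probe set with the highest mean being used. Of 22180 such genes, 12060 reached a log2 level of 4.67, the median gene's mean, on at least 1 of the 4 arrays and were compared. Below this level, which stands in for background, a value is uncertain and a difference understates the change.

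Dmt1, symbol Slc11a2, is the membrane carrier that takes ferrous iron up into intestinal epithelial cells and moves it out of endosomes after transferrin has been taken in. Cells short of iron hold iron regulatory proteins in their RNA-binding form, which protects the mRNA of the transferrin receptor Tfrc and blocks translation of the ferritin mRNAs. Apc restrains Wnt signalling in the colon, and its loss starts tumours there. Along the colon the epithelium and the tissue beneath it keep regional identities, marked by Hox genes and by enzymes and carriers that are typical of the small intestine and the proximal colon.

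Both arrays had the markers of colon epithelium at high levels. The carbonic anhydrase Car1 was at log2 11.75 in wild-type and 11.96 in F/F normal colon, the chloride exchanger Slc26a3 at 11.46 and 11.57, and the mucin Muc2 at 12.36 and 12.30. None of 23 compared colonocyte genes reached a 2-fold difference (median 0.12), and none of 20 goblet cell genes did (median 0.04). Over all 12060 genes the median difference was 0.04 with an SD of 0.35, and the levels on both arrays correlated across genes with a Pearson's r of 0.976, genes not being independent replicates.

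Slc11a2 itself had a log2 level of 6.51 in wild-type and of 6.13 in F/F normal colon, a difference of -0.38, and 9.3% of the compared genes were as low or lower. The tumour arrays of the same genotypes gave 6.64 and 6.19. The F/F array was thus the lower one in both tissues, but by less than 2-fold. The position of its probes within the gene is unknown here, and the value therefore does not measure the deletion. The arrays carried whole-tissue RNA, in which fewer cells of a type and less RNA per cell cannot be told apart. Apc, of which both groups carried 1 floxed allele, was at 8.53 and 8.70.

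The receptor for transferrin was higher in F/F and most of the other iron import genes were lower. Tfrc was at 9.03 in wild-type and 9.57 in F/F normal colon, higher by 0.55, and 4.68% of genes were as high or higher. In tumour it was again higher in F/F, by 0.89. Steap3, a ferrireductase of endosomes, followed it with 0.36 in normal colon and 0.61 in tumour, and the lysosomal channel Mcoln1 with 0.46 and 0.15. Slc39a14, a zinc carrier that also moves iron, was at 0.42 in normal colon and -0.03 in tumour.

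The secreted lipocalin Lcn2, which binds the siderophores of bacteria, was at 6.78 in wild-type and 5.36 in F/F, lower by 1.42. It was the only one of the 14 compared import and reduction genes past 2-fold, where 0.904% of all compared genes were lower by as much. Slc46a1, a carrier of folate and heme, was at -0.48. The metalloreductase Steap4 was at -0.37 and its relative Steap1 at -0.60. In all, 9 of the 14 were below 0, with a median of -0.19, and 10 of 14 were below 0 in tumour. The duodenal ferrireductase Cybrd1 and the second transferrin receptor Tfr2 were below the level minimum on every array.

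Genes of iron export, storage and regulation differed little, with 17 of 20 above 0, a median of 0.12 against 0.04 for all genes, and none past 2-fold. The exporter ferroportin, Slc40a1, was at 8.83 and 9.10, and its partner oxidase hephaestin, Heph, at 8.83 and 9.14, so both were slightly higher in F/F. The ferritin heavy chain Fth1 was at 11.56 and 11.86. Both iron regulatory proteins, Aco1 (0.35) and Ireb2 (0.32), and Fbxl5 (0.23), which targets the latter for degradation, were above 0. Each of these differences is of a size that many genes had: 19% of genes were as high as Slc40a1 or higher, and 16% as high as Fth1.

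The ferroxidase ceruloplasmin, Cp, was at 6.11 in wild-type and 5.39 in F/F normal colon, lower by 0.72, and lower by 0.90 in tumour. Abcg2, an apical exporter that takes heme among many substrates, was at 8.01 and 8.61, and its tumour difference was 1.54. The iron hormone Hamp (4.07 and 3.35) and the heme oxygenase Hmox1 (4.03 and 4.56) lay below the level minimum on both normal arrays, which gives their differences no firm sign. The 21 genes of iron-sulfur cluster and heme synthesis had a median of 0.03, and the 18 targets of hypoxia-inducible factors 0.04, with no gene past 2-fold in either. JAK-STAT3 genes were near 0 as well, with Stat3 at 0.12, Jak1 at -0.05 and a median of 0.08 over 15 genes, and the mitotic kinase Cdk1 was at -0.10.

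**Figure D1:**
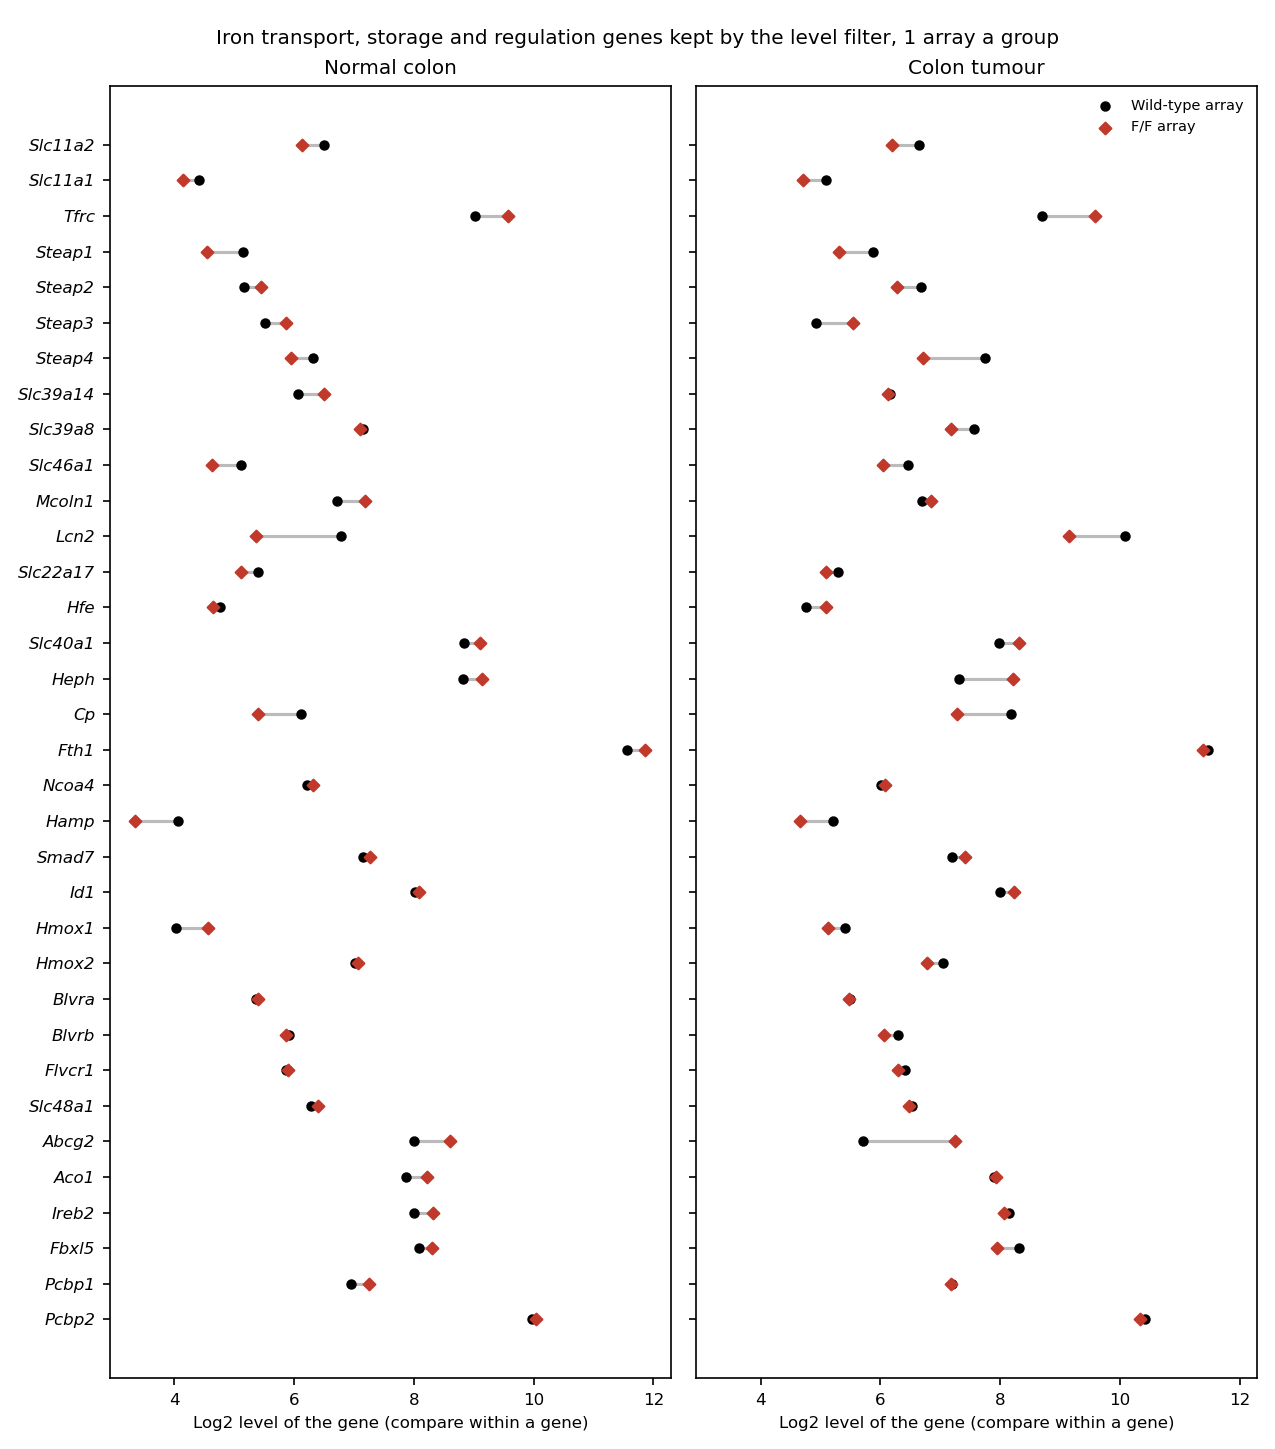
Log2 levels (x axis) of the 34 compared genes of iron import, reduction, export, storage and regulation in normal colon (left) and tumour (right). Black circles are the wild-type array and red diamonds the F/F array, 1 array each. Levels are to be compared within a gene. In normal colon the widest gap is that of Lcn2, lower in F/F by 1.42, while Tfrc is higher by 0.55 and Slc11a2 lower by 0.38.

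Oxidative defence genes lay higher in F/F normal colon, 14 of 20 above 0 with a median of 0.31. Nqo1, a quinone reductase and target of the factor Nrf2, was at 6.96 in wild-type and 7.95 in F/F, a difference of 0.99 that 0.779% of genes reached. Gpx4, the peroxidase that protects membrane lipids, was at 0.63, and the glutathione synthesis subunits Gclc and Gclm at 0.59 and 0.55. Slc7a11, the cystine importer of the same pathway, was at -0.58. It lay below the level minimum on both normal arrays (4.34 in wild-type and 3.76 in F/F), which gives its difference no firm sign. None of the 20 passed 2-fold, and the tumour median was -0.05. Zinc genes had 1 of 13 past 2-fold, the zinc exporter Slc30a2, where 0.904% of all genes were lower by as much. Slc30a2 was at 4.91 in wild-type and 3.87, below the level minimum, in F/F.

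In all, 86 genes (0.713%) passed 2-fold upward in F/F normal colon and 109 (0.904%) downward, together 1.62% of 12060. Of the 86, 23 had 1 normal array below the level minimum and 2 had both. Of the 109, 44 had 1 and 6 both. The share past 2-fold was 2.54% among genes with a mean level under 5 and 0.721% at 9 or more, where the SD of the difference was 0.40 and 0.28. Olfactory and vomeronasal receptor genes function in sensory neurons of the nose. Of 64 that reached the minimum, 2 passed 2-fold upward and 2 downward, which is 6.25%, with a median of 0.00. This gene group was chosen after values had been seen. It is no clean measure of the spread at low levels. A gene near background enters it through its highest array, and Vmn1r157 was at 6.96 in wild-type and 5.76 in F/F normal colon. Nearest to the threshold were Snx20 (1.0017) and Derl3 (-1.0062) inside it, and Pbld2 (0.9988) and Adh1 (-0.9975) outside.

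**Figure D2:**
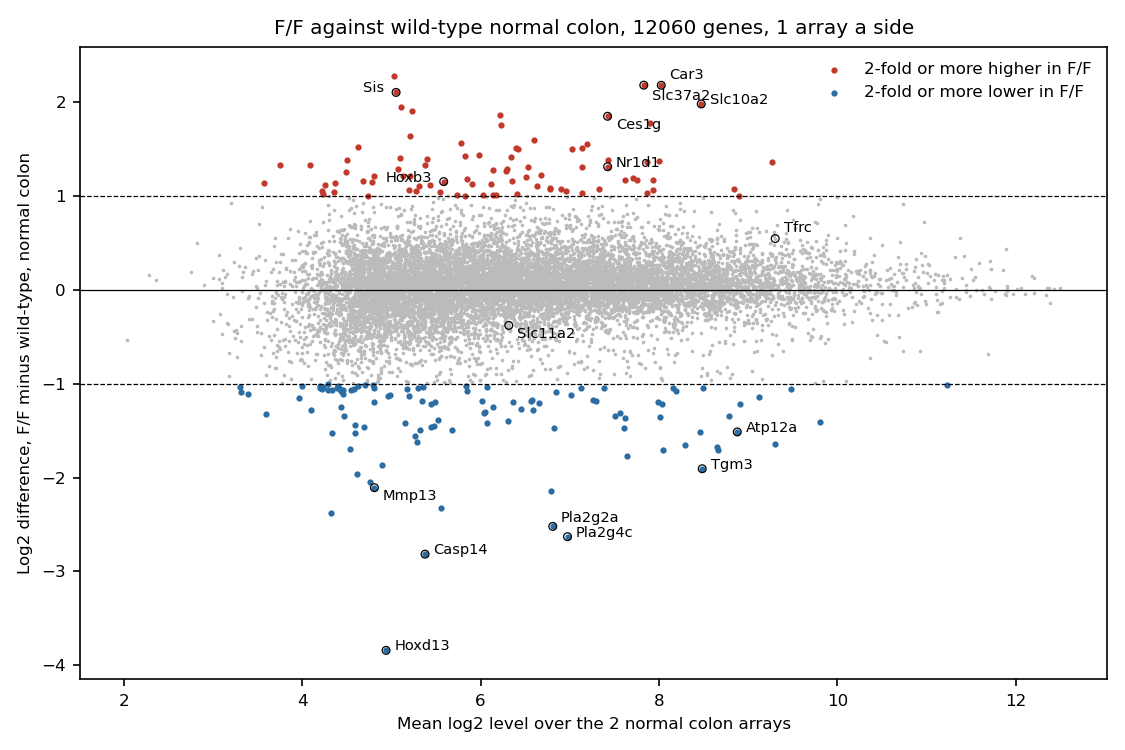
Log2 difference F/F minus wild-type (y axis) against the mean log2 level over the 2 normal arrays (x axis) for 12060 genes, 1 array a side. Dashed lines mark 2-fold, red points are the 86 genes higher in F/F and blue points the 109 lower. Hoxd13 stands lowest, at -3.84, and the spread of the points narrows with the level.

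The lowest gene was Hoxd13, a homeobox factor of the most distal hindgut. Its level was 6.86 on the wild-type array and 3.02 on the F/F array, below the level minimum, which is 14.3-fold lower. Both tumour arrays had it at high levels, 8.58 in wild-type and 8.35 in F/F. The F/F normal piece was thus the odd one of the 4.

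Other Hox genes of paralog groups 9 to 13, the posterior end of the body axis, were mostly lower in F/F too. Hoxb13 was at 5.06 and 3.80, lower by 1.25. Hoxd11 was at 5.41 and 4.21, lower by 1.19. Hoxa9 (-0.98), Hoxa10 (-0.88) and Hoxa13 (-0.63) did not reach 2-fold, and Hoxd12 (0.07) and Hoxb9 (0.61) were not lower. Hoxd12 was below the level minimum on both normal arrays (4.40 and 4.47). Of the 9 compared genes of these groups 7 were below 0 and 3 past 2-fold, where 0.904% of all genes were, with a median of -0.88. Over all 15 with a probe set, without the filter on level, the median was -0.40. In tumour the median was -0.16 and none passed 2-fold.

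Anterior and central genes of cluster B lay on the other side. Hoxb3 was at 5.01 in wild-type and 6.16 in F/F, higher by 1.15, and Hoxb6 was at 7.18 and 8.08, higher by 0.90. All 7 genes from Hoxb3 to Hoxb9 were above 0, from 0.53 to 1.15, with a median of 0.69 in normal colon. Hoxb8 reached the level minimum only on the F/F normal array, so its sign was fixed by the filter. In tumour 5 of the 7 were below the level minimum on both arrays, so their tumour differences say little. Cluster A divided in another way: Hoxa5 was at 6.59 and 5.56, lower by 1.04, and Hoxa6 was lower by 0.90, while Hoxa7 was at 0.43. The 9 compared genes of cluster A had a median of -0.63, the 8 of cluster B 0.68 and the 4 of cluster D -0.80, and no gene of cluster C reached the level minimum. The order along the clusters thus did not follow paralog number alone.

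**Figure D3:**
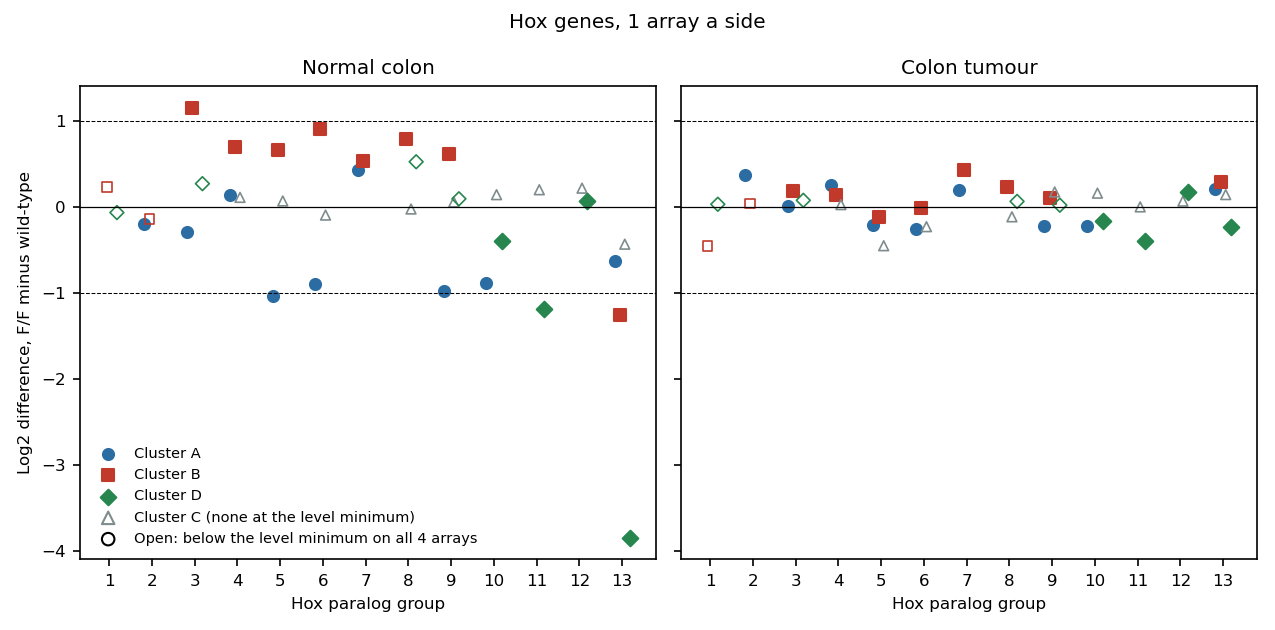
Log2 difference F/F minus wild-type (y axis) of each Hox gene against its paralog group (x axis) in normal colon (left) and tumour (right), 1 array a side, with cluster as symbol and colour. Open symbols are genes below the level minimum on all 4 arrays, and dashed lines mark 2-fold. In normal colon Hoxb3 to Hoxb9 lie above 0 and Hoxd13, Hoxb13, Hoxd11 and Hoxa5 at or below -1, whereas no compared Hox gene passes 2-fold in tumour.

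The homeobox gene Cdx2, which sets intestinal identity, was at 7.78 in wild-type and 8.70 in F/F normal colon, a difference of 0.92 that 0.879% of genes reached. Its relative Cdx1 was at 6.75 and 7.29. Both were higher in the F/F tumour as well, by 1.39 and 0.44. The zinc finger factor Osr2 was at 7.17 and 8.34, the 1 gene past 2-fold among 23 gut patterning factors, where 0.713% of all genes were higher by as much. Of the 23, 19 were above 0, with a median of 0.25. Hnf4a, a factor of differentiated epithelium, was at 0.43, and Gata4, a factor of the proximal small intestine, at -0.42. Gata4 reached the level minimum only on the wild-type normal array, which fixed its sign. The labels give no position along the colon for any piece, and position, animal and genotype cannot be told apart with 1 array a side.

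Genes typical of the small intestine and proximal colon were higher in F/F normal colon, 5 of 16 by 2-fold or more, where 0.713% of all genes were. Slc37a2, a sugar phosphate carrier, was at 6.74 in wild-type and 8.92 in F/F, and sucrase-isomaltase, Sis, at 4.00 and 6.10. Slc10a2, the apical carrier that takes up bile acids in the ileum, was at 7.48 and 9.46. Neurotensin, Nts, a peptide of enteroendocrine cells, was at 6.74 and 8.12, and the intestinal alkaline phosphatase Alpi at 7.31 and 8.68. F/F was the higher array for all 5. Sis reached the level minimum only on the F/F normal array, so it could enter only by being higher there. In tumour the difference was 1.70 for Slc37a2, 0.95 for Slc10a2 and 0.88 for Alpi, while Sis and Nts were below the level minimum on both tumour arrays.

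The median of this list was 0.62, with 12 of 16 genes above 0. Against the direction went Insl5, a hormone of enteroendocrine cells that is made most in the distal colon although this list holds it, at 6.60 in wild-type and 5.42 in F/F. The peptide carrier Slc15a1 was at -0.65. Of 20 brush border genes, some of them shared with this list, 4 were higher by 2-fold or more, against 0.713% of all genes, and 17 above 0 (median 0.39). Besides Sis and Alpi, already counted, these were the peptidase Naaladl1 at 4.88 and 6.00 and Tmigd1, an adhesion protein of epithelium, at 8.40 and 9.40.

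Every one of the 12 compared genes of bile acid transport and response was above 0, with a median of 0.53. Past 2-fold were 3, against 0.713% of all genes, Slc10a2 of the list above among them. Over all 21 with a probe set, without the filter on level, the median was 0.31. Slc51a, a subunit of the basolateral bile acid exporter, was at 5.35 in wild-type and 7.11 in F/F. Ugt2b5, a glucuronosyltransferase, was at 4.28 and 6.18. It reached the level minimum only on the F/F normal array, so its sign was fixed by the filter. The nuclear receptors Nr1h4 and Vdr, which respond to bile acids, were at 0.34 and 0.38, and the efflux pump Abcb1a at 0.91. Fabp6, Fgf15 and Nr0b2, which bile acids induce in the ileum, were below the level minimum on all arrays.

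Enzymes that modify drugs and other foreign compounds were higher as well. Among 23 genes of phase I, 4 passed 2-fold upward, where 0.713% of all genes did: Cyp2c66 (5.0 and 6.57), the flavin monooxygenase Fmo5 (6.42 and 7.97), Cyp2d26 (5.67 and 7.17) and Cyp4b1 (4.53 and 5.74). Cyp4b1 was at the level minimum on the F/F normal array alone and could enter only by being higher there. The median was 0.39, with 6 of the 23 below 0, and 0.12 over all 32 genes without the filter on level. Alcohol dehydrogenase Adh1 went the other way, from 10.25 in wild-type to 9.25 in F/F. Of 19 conjugating enzymes and carboxylesterases 18 were above 0 (median 0.46, and 0.28 over 25 without the filter on level), with Ces1g at 6.50 and 8.35. Among the 18, Ces1d and Ugt2b5 reached the level minimum only on the F/F normal array, which fixed their sign. Cyp2c, Cyp2d, Ces1 and Ugt2b genes have near-identical relatives, whose transcripts can share probes, so the member is uncertain. Outside the lists, 9130221F21Rik had the highest difference of all, 2.28, from 3.89, below the level minimum, to 6.17. Cyp2e1 (1.64), the lectin Clec2e (1.77), the peptidase Xpnpep2 (1.51) and the hexokinase-like Hkdc1 (1.51) followed among the 20 highest.

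In fat burning, 19 of 20 genes were above 0, by a median of 0.31. The nuclear receptor Ppara, which drives these genes, was at 4.76 and 5.86, and the carnitine transferase Cpt1a at 8.77 and 9.42. The coactivator Ppargc1a was the 1 gene below 0, at 8.20 and 7.56. Subunits of oxidative phosphorylation differed little (median 0.10, none of 26 past 2-fold), as did cholesterol and fatty acid synthesis (median 0.02 over 20).

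With the scaling and level filter used here, adipocyte genes made up the list with the highest median, 0.72. Of 13 compared genes 13 were above 0 and 6 past 2-fold, where 0.713% of all genes were higher by as much. Plin1, Lipe and Slc2a4, none of them past 2-fold, reached the level minimum only on the F/F normal array. Their sign was therefore fixed by the filter. Without the filter on level the median over 18 was 0.56, below the 0.64 of 17 circadian genes. The carbonic anhydrase Car3 was at 6.94 in wild-type and 9.11 in F/F, and lipoprotein lipase, Lpl, at 5.29 and 7.15. Resistin, Retn, was at 5.26 and 6.69, and the fatty acid binding protein Fabp4 at 7.18 and 8.54. The lipogenic factor Thrsp (4.70 and 6.09) and the lipid droplet protein Cidec (6.07 and 7.18) completed the 6. Adiponectin, Adipoq, which only adipocytes make in quantity, was below the level minimum on both arrays (3.94 and 4.41), as was leptin, Lep (2.93 and 4.24). The mean log2 level of the 13 was 5.99 in wild-type and 6.95 in F/F normal colon, and 5.21 and 5.33 in the tumours. Car3 is also made by skeletal muscle, of which all 5 compared genes, Car3 included, were above 0 (median 0.50), with Tcap at 0.66, Acta1 at 0.50 and Ckm at 0.06. Tcap was compared only because its F/F normal array reached the level minimum, so its sign was fixed by the filter. Without the filter on level the median over 15 muscle genes was 0.15. The parts of fat and of skeletal muscle in these differences were not tested.

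Muscle and connective tissue genes lay lower in F/F normal colon. Of 21 smooth muscle genes 20 were below 0, with a median of -0.58. Only desmin, Des, passed 2-fold, against 0.904% of all genes, with a level of 8.94 in F/F and a difference of -1.06. Calponin, Cnn1, was at 10.58 and 9.61 and smooth muscle actin, Acta2, at 10.82 and 10.27. In tumour the median had the other sign, 0.61. Of 20 fibroblast and matrix genes 18 were below 0 (median -0.44), with fibronectin, Fn1, at 8.72 and 7.65 and periostin, Postn, at 9.08 and 8.21, and their tumour median was -0.07. Mean levels of the muscle list were 8.13 and 7.54 on the normal arrays, opposite in direction to the fat genes and to Hoxb3 to Hoxb9, and their part in the other differences was not tested.

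**Figure D4:**
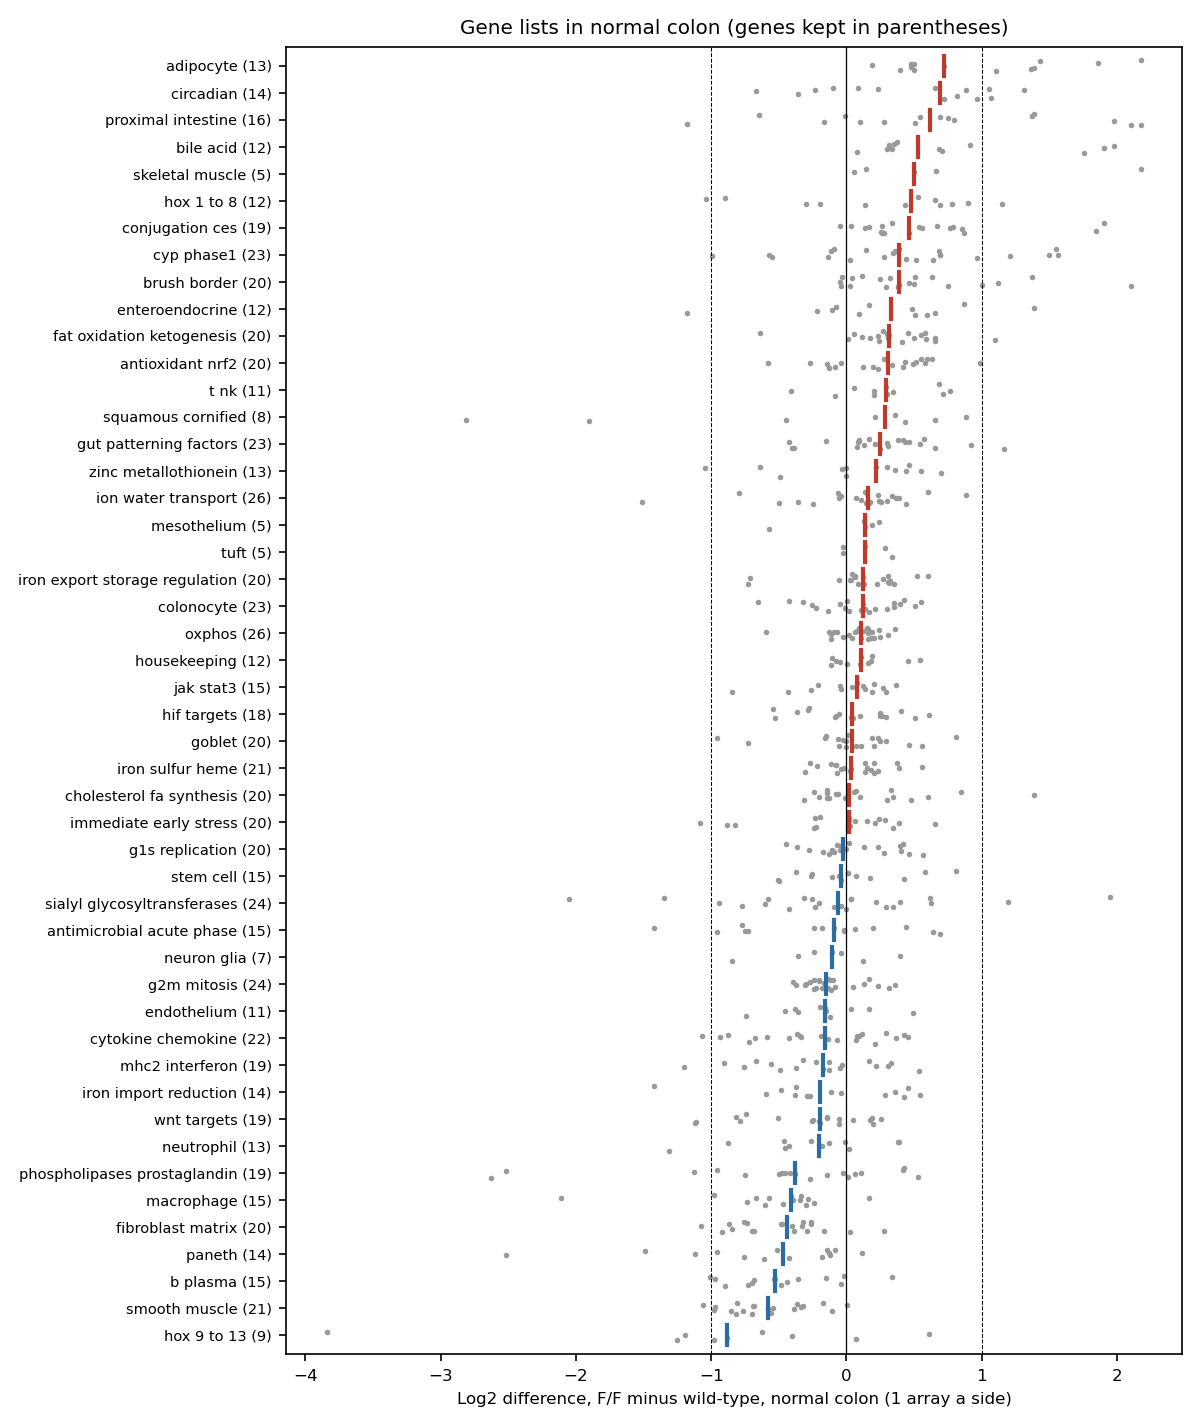
Log2 difference F/F minus wild-type in normal colon (x axis) of each compared gene (grey points, jittered vertically) in the 48 lists with at least 5 compared genes, with the list's median as a red (above 0) or blue (below 0) bar. There is 1 array a side, and dashed lines mark 2-fold. With the scaling and level filter used here, adipocyte genes have the highest median, 0.72, and the posterior Hox genes the lowest, -0.88. Without the filter on level, circadian genes have the highest, 0.64, and smooth muscle genes the lowest, -0.58.

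Genes of antibody-producing cells were lower. Of 15 B and plasma cell genes, 5 of them below the level minimum on both normal arrays, 14 were below 0 with a median of -0.53, among them Jchain, which joins secreted IgA and IgM, at 10.33 and 9.35, and the B cell receptor subunit Cd79a at 5.98 and 5.09. The lists held no immunoglobulin gene, and these were counted after values had been seen. Of 22 immunoglobulin V, J and C segments that reached the minimum, 12 (54.5%) were lower by 2-fold or more, none higher, where 0.904% of all genes were lower by as much. They had a median of -1.08 and a range from -2.38 to 0.22. The joining segment Igkj1 was at 10.12 and 8.47, and the variable segment Igkv4-59 at 7.86 and 5.72. All 7 probe sets of the heavy chain Ighm were lower, from -1.59 to -0.72. Variable segments are many and alike, so they share probes and are not independent of each other. Tumour values did not follow: the segments had a median of 0.20 and the B and plasma cell list 0.97.

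Macrophage genes were below 0 in 14 of 15 cases, with a median of -0.41. The collagenase Mmp13, which fibroblasts also make, was at 5.86 in wild-type and 3.76 in F/F, and the scavenger receptor Msr1 at 5.68 and 4.70. Only Mmp13 passed 2-fold, where 0.904% of all genes were lower by as much. Of 13 compared neutrophil genes 11 were below the level minimum on both normal arrays, S100a8 and S100a9 among them, and the median over the 13 was -0.20. Ly6g, at 8.21 and 6.90, does not stand for this list. In tumour it was higher in F/F by 0.83, while 12 of the 13 were below 0. The chemokine Cxcl9, which interferon gamma induces, was at 8.58 and 7.38. It was the only one of 19 interferon and MHC class II genes past 2-fold (median -0.17), against 0.904% of all genes. T and NK cell genes went the other way, 9 of 11 above 0, and 7 of the 7 that reached the minimum in normal colon. Of these 7, Cd8b1 reached it only on the F/F normal array, so its sign was fixed by the filter. The median was 0.29 over the 11 and 0.21 over 15 without the filter on level. Cd3e was at 5.26 and 6.03 and the granzyme Gzma at 6.41 and 7.12, and none of the 11 passed 2-fold.

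Some genes of defence products and of lipid mediator synthesis were lower. Of 14 compared Paneth cell genes 5 were below the level minimum on both normal arrays. Of the other 9, 8 were below 0 (median -0.75) and 3 passed 2-fold, where 0.904% of all genes did: the phospholipase Pla2g2a (8.07 and 5.55), the lysozyme Lyz1 (6.43 and 4.93) and the protease Mmp7 (7.57 and 6.46). C57BL/6 mice carry a disrupted Pla2g2a gene, so its signal is that of a transcript that makes no working enzyme. Of 19 phospholipases and genes of prostaglandin synthesis, which include Pla2g2a, 3 were lower by 2-fold or more, against 0.904% of all genes, and 13 below 0 (median -0.38). Antimicrobial and acute phase genes had 1 of 15 past 2-fold, Lcn2, against 0.904% of all genes. Their median was -0.10, with the lectins Reg3b at -0.02 and Reg4 at 0.44. Pla2g4c, a cytosolic phospholipase, was at 8.29 and 5.66, 6.19-fold lower, and in tumour it was higher by 0.65. Ptgs2, the inducible enzyme of prostaglandin synthesis, was at 6.47 and 5.51 in normal colon, and its tumour difference was -1.18. Among 19 Wnt targets (median -0.20) 2 were lower by 2-fold or more, Mmp7 and Notum, against 0.904% of all genes. Notum was below the minimum on both normal arrays, and its other probe set differed by only -0.14.

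Several epithelial enzymes stood apart singly. Casp14, a protease of cornifying skin cells, was at 6.78 in wild-type and 3.97 in F/F, and the transglutaminase Tgm3 at 9.44 and 7.53. The squamous keratin Krt14 was below the minimum on both normal arrays. The list's median was 0.28 over 8 genes and -0.04 over the 6 that reached the minimum in normal colon. The sialyltransferases St8sia5 (5.78 and 3.73) and St3gal5 (4.13 and 6.08), which both act on gangliosides, went in opposite directions, and B4galnt1, of the same pathway, was at 7.12 and 8.31. B3gnt7, which extends glycan chains, was at 8.18 and 6.84. The 12 compared enteroendocrine genes had Nts higher and Insl5 lower by 2-fold or more, where 0.713% of all genes were higher and 0.904% lower by as much. Their median was 0.33, or 0.09 over 18 without the filter on level, and Chga, their common granule protein, was at 6.51 and 7.16. Genes of G2/M and mitosis were below 0 in 18 of 24 cases by a median of -0.15, and stem cell genes had a median of -0.04 over 15, with none past 2-fold in either. Atp12a, the colonic proton-potassium pump, was at 9.63 and 8.12, the 1 gene past 2-fold among 26 of ion and water transport (median 0.16). Of all genes 0.904% were lower by as much.

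Clock genes lay on both sides of 0. The circadian clock is a loop in which Arntl and Clock switch on their own repressors (Per, Cry, Nr1d) and output factors such as Dbp, each peaking at its own time of day. Windows of 250 bases before the start sites of RefSeq (GRCm38.p6) were searched on both strands for the elements through which these factors act. A gene can have several windows, and a match in any of them was counted for the gene. The E-box CACGTG, read by Arntl and Clock, was in 6.02% of all 32851 windows and counted for 6.86% of 27025 genes. It was counted for 5 of the 16 circadian genes with a window (Per1, Cry1, Tef, Ciart and Bhlhe41). The D-box TTATGTAA, read by Dbp and Nfil3, was counted for 0.977% of genes (0.819% of windows), and of the 16 only for Per3. TAGGTCA, a core of the element read by Nr1d1, was counted for 2.55% of genes (2.23% of windows), and of the 16 only for Nfil3. The motifs do not overlap each other in letters, and they were chosen after values had been seen. A match describes letters and shows no binding, and no match says only that these letters are not in the window. These 4 stretches show an element of each kind, motif in capitals, 5′ to 3′ on the strand of the gene.
Per1, chr11:69098748-69098823, plus strand: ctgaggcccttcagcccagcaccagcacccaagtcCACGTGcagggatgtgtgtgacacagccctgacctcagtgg
Ciart, chr3:95882304-95882379, minus strand: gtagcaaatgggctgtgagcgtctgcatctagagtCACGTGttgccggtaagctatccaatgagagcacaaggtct
Per3, chr4:151044828-151044905, minus strand: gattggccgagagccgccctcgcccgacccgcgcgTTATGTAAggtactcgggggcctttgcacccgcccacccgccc
Nfil3, chr13:52981040-52981086, minus strand: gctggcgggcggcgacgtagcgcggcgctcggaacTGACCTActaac
The window of Nfil3 holds TAGGTCA on the opposite strand and so reads TGACCTA here.

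Repressors and outputs of the clock were higher in F/F normal colon. Nr1d1, a nuclear receptor that represses Arntl, was at 6.77 in wild-type and 8.08 in F/F, and in tumour at 6.11 and 7.69. Dbp was at 6.43 and 7.49 in normal colon and at 5.36 and 6.94 in tumour. Per1, with the E-box shown, was at 6.36 and 7.44. These 3 passed 2-fold, of 14 compared clock genes, where 0.713% of all genes did. Nr1d2 (0.97), Ciart (0.89), Cry2 (0.82), Usp2 (0.72) and Per3 (0.65) were above 0 by less.

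The 3 activators were below 0. Arntl was at 8.0 in wild-type and 7.34 in F/F normal colon, with 7.29 and 6.92 in tumour. Clock was at 9.96 and 9.73, and Npas2 was at -0.10. Nfil3, a repressor of D-box genes with the element of Nr1d1 shown, was below 0 as well, at 5.35 and 5.0. Of 11 repressors and outputs 10 were above 0 in normal colon (median 0.82), Nfil3 being the exception, in a grouping by role made after values had been seen. In tumour, on separate arrays, 8 of the 11 were above 0, Bhlhe40, Cry1 and Nfil3 being the exceptions, and the 3 activators below 0. Counted together, 12 of 14 clock genes had the same sign in both tissues. The same animals may have given both tissues. The labels give no time of day, and time of collection and genotype cannot be told apart.

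**Figure D5:**
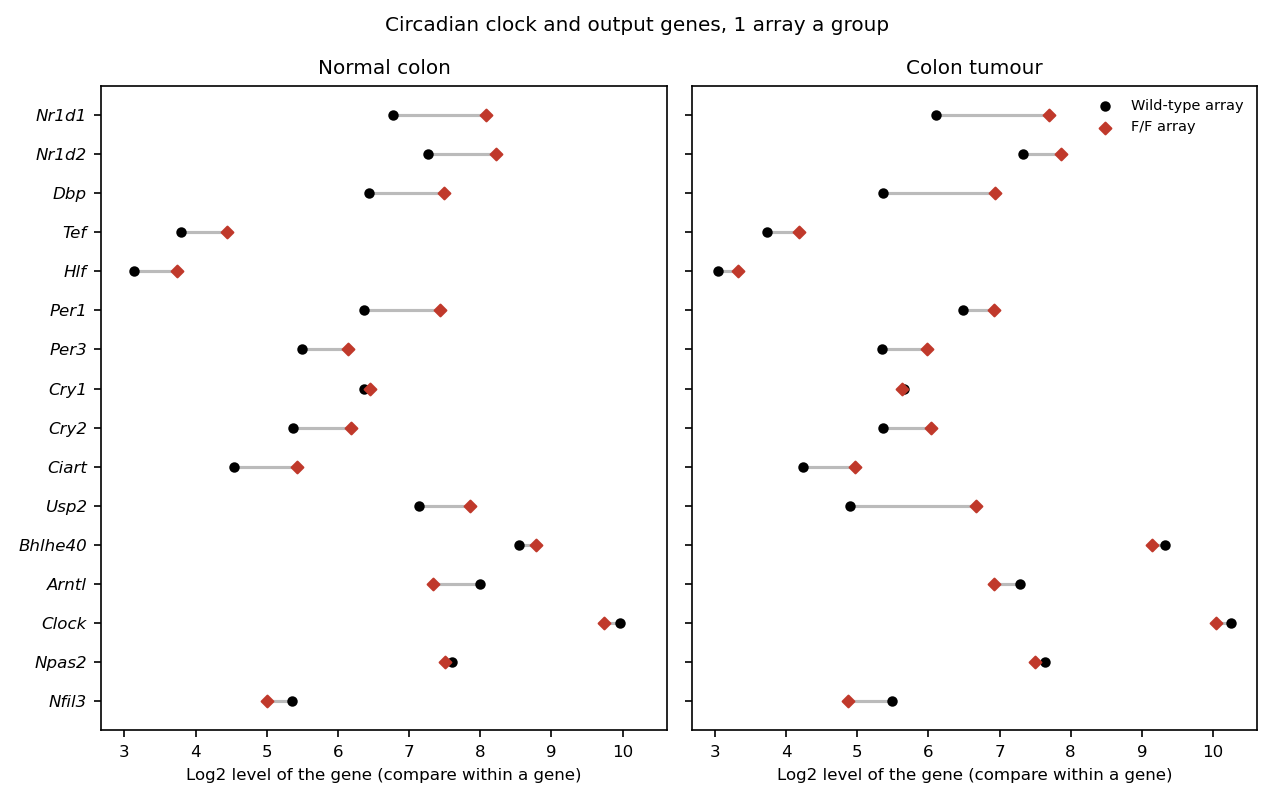
Log2 levels (x axis) of 16 clock and output genes in normal colon (left) and tumour (right). Black circles are the wild-type array and red diamonds the F/F array, 1 array each, and levels are to be compared within a gene. Tef and Hlf did not reach the level minimum. Nr1d1, Dbp and Per1 lie to the right in F/F in both tissues, and Arntl, Clock, Npas2 and Nfil3 to the left.

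Of the heat shock genes, 3 were lower in F/F by more than the rest. The chaperone Hspa1a was at 7.38 and 6.30 in normal colon (-1.08, and -0.50 in tumour), and its partner Hsph1 at 8.07 and 7.24 (-0.82 and -0.83). Hspa1a and Hspa1b (8.07 and 7.19) are near-identical copies whose probes can take each other's transcripts. Other chaperones were near 0 in normal colon, Dnajb1 at 0.02, Hspa8 at 0.01 and Hsp90aa1 at -0.22. Hspa1a was the only gene of its list of immediate early and stress genes past 2-fold, where 0.904% of all genes were lower by as much. The list's median was 0.02 over 20 genes, with Jun at 0.65.

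Signals of X and Y origin were both present on every array. The Y-linked translation factor Eif2s3y was at 8.20 in both normal pieces, and Kdm5d, on the Y as well, at 7.13 and 6.97. Xist, the RNA that silences an X chromosome in female cells, was at 8.95 in wild-type and 8.55 in F/F normal colon, with 7.11 and 10.10 in the tumours. The normal pair thus had both kinds of signal at like levels, and the F/F tumour more Xist than the others. The Y-linked genes Uty (-1.03), Kdm5d (-0.91) and Eif2s3y (-0.66) were lower in the F/F tumour than in the wild-type tumour. The tumour pair therefore differed in both kinds of signal. Whether the arrays carried pools of both sexes was not tested.

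The tumour pair shares no array with the normal pair and gives the same genotype difference in other tissue, with 2.21% of genes past 2-fold. Of the 86 genes higher in F/F normal colon, 61 (70.9%) were above 0 in tumour, where 46.2% of all compared genes were, and 13 were higher by 2-fold or more, against a background of 1.7%. Of the 109 lower genes, 58 (53.2%) were below 0 in tumour, where 53.8% of all genes were, and 5 were lower by 2-fold or more, against 0.506%. Genes that lay lower in F/F normal colon were therefore below 0 in tumour about as often as any gene. Of the 86 higher genes 32 were below the level minimum on both tumour arrays, and of the 109 lower genes 11, and the tumour sign of these is uncertain. Across all compared genes both differences had a Pearson's r of 0.147 and a Spearman's rho of 0.172, genes not being independent replicates.

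Of the 13 genes higher in both tissues, Slc37a2 (2.18 in normal colon and 1.70 in tumour), Nr1d1 and Dbp have been named. The others included Psca, a surface protein (1.5 and 1.22), the retinol acyltransferase Lrat (1.12 and 1.20), the mucin-type glycosyltransferase Galnt6 (1.17 and 1.04), the pyruvate dehydrogenase kinase Pdk2 (1.08 and 1.01), Ceacam18 (1.18 and 1.23) and Tmigd1 (1.0 and 1.97). The 5 lower in both were the neutrophil chemokine Cxcl5 (-1.06 and -1.30), the inhibitory receptor Lilrb4a (-1.28 and -1.02), Slc30a2 (-1.04 and -1.74), the amino acid carrier Slc38a4 (-1.46 and -1.21) and the receptor gene Vmn1r157 (-1.20 and -1.13). Of the 195 genes past 2-fold in normal colon, 169 were not past it in tumour in either direction, and 43 of these were below the level minimum on both tumour arrays.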

How the data were processed

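Total RNA of normal colon and tumour was measured on 4 arrays, 1 a group, from 400 ng RNA per the labels' protocols. The deposited table holds log2 values per probe set, which the authors obtained by RMA with oligo, per the submitters' processing notes, versions not given. RMA puts the arrays on a common distribution and so removes differences in total signal. It gives no detection call, and precision is limited by how few arrays there are. Of 41345 probe sets, 23521 named 1 gene, 1814 several and 16010 were unnamed in the platform annotation used here. Gene IDs of 23328 probe sets matched RefSeq (GRCm38.p6), and 193 kept their own symbol. There were 0 columns of other samples.

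Differences, F/F minus wild-type, were computed in Python 3.11.15 with pandas 2.3.3 and counted at a log2 difference of 1 (2-fold). The 51 gene lists held 1021 genes, of which 936 had a probe set and 754 were compared. Members, lists and rules were chosen with earlier results of these data known. Named genes were the 20 highest and 20 lowest, up to 5 genes past 2-fold in each list (otherwise the 2 of largest size), fixed iron, Hox and signalling genes, and those past 2-fold in both tissues. Other genes were named as list members for their role. Quantile normalization and cyclic loess used limma 3.58.1 in R 4.3.3, and the counting was tested on simulated data. Lists without an account in the text had no more than 1 gene past 2-fold.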

Additional observations from a re-analysis of the deposited data

Results flagged for a closer look

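For 8 genes the F/F array lay at least 2-fold below wild-type in normal colon and at least 2-fold above it in tumour. These are 8 of the 109 lower genes, where 1.7% of all compared genes were 2-fold or more higher in tumour. The difference between the tissues was not tested, since each genotype had 1 array per tissue. The largest gap was that of Tgm3, the transglutaminase, at -1.91 in normal colon and 1.42 in tumour (-3.32 between them). St8sia5 was at -2.05 and 1.17 (-3.22) and the proton-potassium pump Atp12a at -1.51 and 1.35 (-2.87). The cytochromes Cyp2d13 (-1.05 and 1.53, a gap of -2.58) and Cyp2d12 (-1.13 and 1.15, a gap of -2.28) are close relatives and may share probes. Sycn, a zymogen granule protein, was at -1.36 and 1.11 (-2.47), Apol7c at -1.19 and 1.24 (-2.43) and the gasdermin Gsdmc3 at -1.22 and 1.0 (-2.22). No gene was at least 2-fold higher in normal colon and at least 2-fold lower in tumour. Only 86 genes were higher in normal colon, and 0.506% of all compared genes were lower in tumour by as much, so the absence says little.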

How the results depend on the processing

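No paired analysis was possible because each group had 1 array, whose number is only a name. Under 6 planned changes of scaling, level filter or probe set choice, between 84 and 107 genes passed 2-fold upward in F/F normal colon and 96 to 119 downward. Of 196 named genes at most 5 crossed 2-fold, and none of those past 2-fold changed sign. Changes of sign among smaller differences were not counted. With each array centred on its median the counts were 102 and 96, and the higher share 51.5% instead of 44.1%, the median of all genes moving from 0.04 to 0.08. Between 182 and 195 of the 195 genes stayed past 2-fold under these changes. Of the list medians, that of squamous genes (0.28) became -0.04 with the filter on the 2 normal arrays, and that of G1/S genes (-0.02) became 0.02 with centring. At a log2 threshold of 0.6, 429 genes were higher and 456 lower, and at 2.0, 4 and 9. Without replicates no leave-one-out value exists. RMA signals of low genes lie near background, which limits differences below log2 4.67.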

Other observations

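Probe sets outside the comparison of named genes differed more often. Of 7321 unnamed probe sets at or above the level minimum, 149 passed 2-fold upward and 372 downward in F/F normal colon, together 7.12%. Of 871 that name several genes, 6 were higher and 20 lower (2.99%). The gene Syne1, a large nuclear envelope protein, had 59 probe sets, of which 50 reached the minimum and 49 of these were lower in F/F, with a median of -0.71. Of 132 microRNA genes at or above the minimum, 1 was lower by 2-fold or more and none higher, with a median of -0.11.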
